A study of Drosophila melanogaster with 24 samples.

Results

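The change of the dmyc over cd2 expression ratio between 0 and 12 h was examined in wing imaginal discs of Drosophila melanogaster, the larval epithelial sacs that form the adult wing. All 12 arrays titled for these times were used, 6 for 12 h and 6 for 0 h, of 24 arrays in the series. Each array is a competitive hybridisation: RNA from tub>dmyc>Gal4 discs, labelled with one dye, was set against RNA from tub>cd2>Gal4 control discs, labelled with the other, on the same slide. In both genotypes the ubiquitous tubulin promoter drives the cassette, which holds the Drosophila Myc gene in the one and cd2 in the control. Both were larvae of the third instar grown at 25 degrees, and both received a heat shock of 15 min at 37 degrees, which the labels say was given so that clones with and without GFP would border each other. The labels give the times as 0 and 12 h and do not name the step from which they were counted. Dissected discs hold several cell layers, so fewer cells of a type and less RNA per cell cannot be told apart, and a change of the ratio may come from either genotype.

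Cell competition is the process by which cells that are viable on their own are removed from a tissue because fitter neighbours surround them. Cells with more Myc, a transcription factor that raises ribosome production and cell growth, act as winners of such contests in the wing disc and displace neighbours with less. Flower (fwe), a membrane protein whose isoforms mark losers, SPARC, a secreted matrix glycoprotein that protects losers, and azot, a calcium-binding protein that acts in their removal, are known components. The series concerns these contests, and the comparison asks how the expression difference between the genotypes changed between the times.

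Every value below is on the log2 scale, where a difference of 1 multiplies the ratio by 2. A feature is a spotted probe, or the mean of the probes of a gene. Ratios are likely dmyc over cd2: the order of names in the titles gives the direction, and with the opposite order every "higher" and "lower" would change places. The change is the ratio at 12 h minus the ratio at 0 h, from a limma fit over all 24 arrays, and a feature was called where its p-value, adjusted over all 10622 features tested, was under 0.05. Values after ± are standard errors of that fit. Each gene has 6 arrays at each time unless stated otherwise. Since the labels leave unsaid if each replicate is its own set of animals, the p-values reflect spread among these samples alone, and that spread may be technical. Array ratios had standard deviations between 0.183 and 0.292 over the features, and precision is limited by how many arrays there are.

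Some arrays stood apart, and every result below has to be read with that. Each array was given a partner at the same time with the dyes exchanged, picked from these values as the array that correlated best with it. At 12 h and at 0 h the partners were replicates 1 and 4, 2 and 5, and 3 and 6, and the fit treats partners as correlated (0.444). Across the features, the mean of the 12 h arrays and the mean of the 0 h arrays had a correlation of -0.388. The partner pair of replicates 3 and 6 at 12 h ran almost opposite to the pair of replicates 3 and 6 at 0 h (r = -0.81). The 12 h pairs 1 and 4, 2 and 5, and 3 and 6 had correlations of -0.36, -0.41 and -0.42 with the 0 h pair 2 and 5. With the 0 h pair 1 and 4 the same 12 h pairs had 0.28, 0.36 and -0.10. These are correlations across genes, which are not independent replicates.

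**Figure D1:**
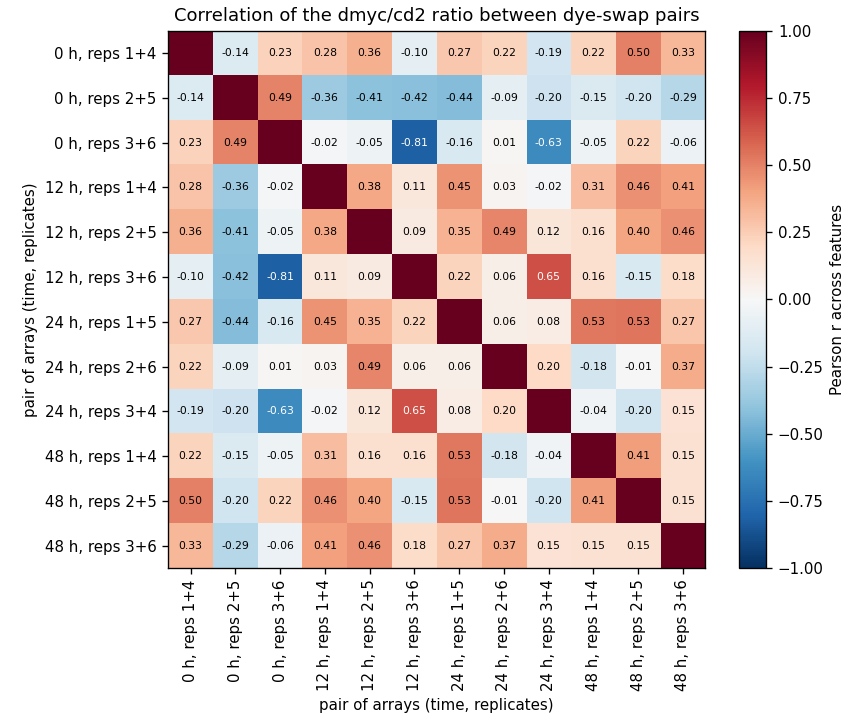
Pearson correlation across features of the dmyc/cd2 log2 ratio between partner pairs of arrays, 3 pairs at each of 0, 12, 24 and 48 h, with red for positive and blue for negative values. The 12 h and 0 h pairs of replicates 3 and 6 meet at -0.81, the deepest blue field, and the 0 h pair of replicates 2 and 5 is blue against every pair of a later time.

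The direction of the 0 h arrays is therefore not settled by the values. Among 219 features with the same sign on all arrays of 24 and 48 h, the 12 h arrays held that sign for 85% to 90.8%. Replicates 1 and 4 of 0 h held it for 77.8% and 79%, but replicates 2, 3, 5 and 6 of 0 h for 32.4%, 30.6%, 33.8% and 27.4%. Among the 5 named genes of these features with the largest mean ratios at 24 and 48 h, BaraB, CG3097 and grass kept their later sign on all 12 arrays of 12 h and 0 h, Ref2 on 11 and pst on 8. These 5 names were chosen after their values were seen. The directions below are as deposited. With replicates 2, 3, 5 and 6 of 0 h turned, no feature was called by limma, although 248 had an unadjusted p under 0.05.

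In the fit over all arrays, 1320 of 10622 features (12.4%) had a changed ratio, of which 963 (9.07%) were higher and 357 (3.36%) lower at 12 h. Quantile normalization of the arrays gave 689 higher and 517 lower. Every array was centred on its median, so changes are relative to the median feature. Without adjustment, 2891 features had a p under 0.05. At 12 h itself 143 features (1.35%) had a ratio different from 0, with 101 above and 42 below, against 513 (4.83%) at 0 h, with 99 above and 414 below. With partner arrays averaged, limma called no feature at either time, and 1486 features at 12 h and 1720 at 0 h had an unadjusted p under 0.05. The split that follows holds only for the fit with partners as correlated arrays. Of the 963 features that were higher, 372 had a ratio called below 0 at 0 h, 93 a ratio called above 0 at 12 h, and 528 neither. Their median ratio by time was -0.23 (0 h), 0.20 (12 h), 0.13 (24 h) and 0.02 (48 h). The median ratio of the 357 lower features was 0.14, -0.13, -0.08 and -0.03 at the same times. Most steps were small, with a median size of 0.39, and 38 features were higher by more than 1 while 1 was lower by more than 1.

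**Figure D2:**
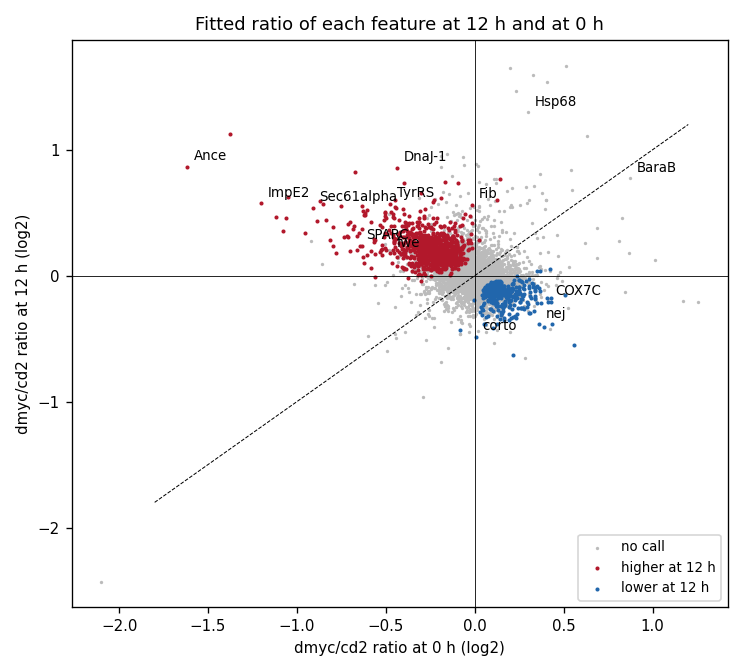
Fitted dmyc/cd2 log2 ratio of each of 10622 features at 12 h (vertical) and at 0 h (horizontal), with called features in red (963 higher at 12 h) and blue (357 lower at 12 h) and the dashed line marking equal ratios. Of the called features, 956 of the 963 higher lie in the upper left quadrant and 352 of the 357 lower in the lower right. BaraB lies near the dashed line at 0.78 at 12 h and 0.88 at 0 h.

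Without replicates 3 and 6 of both times, 31 features (0.292%) were called, 26 higher and 5 lower, and 27 of the 31 were also called with them. The median change of the 963 was 0.30 in those arrays against 0.42 in all, and the median standard error over all features was 0.11 against 0.09. Without replicates 2, 3, 5 and 6 of 0 h, 34 features (0.321%) were called. As a description of the arrays, 911 of 10259 features with 5 or more values at each time (8.88%) had ranges that did not overlap, 569 higher and 342 lower. Of these, 622 were called.

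SPARC was higher at 12 h. Its lowest, median and highest ratios were 0.03, 0.26 and 0.41 at 12 h, against -0.80, -0.62 and -0.58 at 0 h, and values are given in this order throughout. All 12 h arrays were above 0 and all 0 h arrays below it, so the times did not overlap. The change was 0.88 ± 0.11 (adjusted p 0.000203), and without replicates 3 and 6 it was 0.83 (adjusted p 0.0318). The fwe feature, which does not separate the isoforms, also rose. The ratios of fwe were -0.06, 0.14 and 0.53 at 12 h, against -0.61, -0.49 and -0.33 at 0 h. Replicate 4 of 12 h was just below 0, and all 0 h arrays were lower than every 12 h array. The change was 0.65 ± 0.13 (adjusted p 0.00278), but without replicates 3 and 6 it was 0.55 and missed the threshold (adjusted p 0.0727). The ratio of azot was -0.16, 0.07 and 0.53 at 12 h, against -0.24, -0.04 and 0.14 at 0 h (5 arrays at 12 h), the times overlapped, and its change was 0.15 ± 0.20 (adjusted p 0.69). The list of genes linked to flower or fitness comparison held 7 measured members, among which only these 2, SPARC and fwe, were called. The transcript of dm, the Myc gene, is not analysed here. Its network partners Max, Mnt, Mondo and bigmax had changes between -0.08 and -0.01, and none was called by limma or had an unadjusted p under 0.05. These 4 were named after their values were seen.

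Ance, a secreted homologue of angiotensin-converting enzyme, had the largest change, with directions as deposited, of all named genes called with 5 or more values at each time. The ratios of Ance were 0.10, 0.87 and 1.59 at 12 h, against -2.19, -1.56 and -1.18 at 0 h. The lowest 12 h array was above the highest 0 h array. The change was 2.48 ± 0.50 (adjusted p 0.00338), and without replicates 3 and 6 it was 2.69 (adjusted p 0.0727) and missed the threshold. With partners averaged the adjusted p of Ance was 0.0764, and with replicates 2, 3, 5 and 6 of 0 h turned its change was 0.65 (adjusted p 1). ImpE2, an ecdysone-inducible gene, followed with 1.78 ± 0.41 (adjusted p 0.00764), but its size was 0.78 (adjusted p 0.393) without replicates 3 and 6. The same held for the actin genes Act79B (1.68 ± 0.32) and Act87E (1.43 ± 0.26) and the tubulin genes betaTub56D (1.58 ± 0.39) and alphaTub85E (1.52 ± 0.25). Without those replicates they stood at 0.78, 0.75, 0.68 and 0.84. CG8036, a transketolase gene, stood at 1.46 ± 0.30. NAT1, a relative of the initiation factor eIF4G, stood at 1.28 ± 0.27. Mapmodulin and the RNA-binding protein gene HnRNP-K had changes of 1.14 ± 0.29 and 1.13 ± 0.25. The 4 had adjusted p-values of 0.00351, 0.00441, 0.0132 and 0.0054, and none passed without replicates 3 and 6.

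With directions as deposited, the named genes that fell most included ben and nej. ben, a ubiquitin-conjugating enzyme of the Ubc13 type, fell by 0.79 ± 0.21 and nej, the CBP histone acetyltransferase, by 0.75 ± 0.14. The ratios of nej were -0.53, -0.42 and -0.23 at 12 h, against 0.11, 0.33 and 0.60 at 0 h. No array of 12 h reached the lowest array of 0 h. Without replicates 3 and 6, nej stood at -0.82 and still passed (adjusted p 0.0497). ben stood at -0.94 and missed the threshold (adjusted p 0.123). With replicates 2, 3, 5 and 6 of 0 h turned, ben was at -0.075 and nej at -0.15, and neither was called. The 15 lowest also included mitochondrial genes: COX7C, a cytochrome c oxidase subunit (-0.62 ± 0.13), Tim9a, an import chaperone (-0.61 ± 0.13), and ATPsynG, an ATP synthase subunit (-0.59 ± 0.13). Ssb-c31a, a coactivator of the PC4 type, stood at -0.58 ± 0.14. The condensin subunit barr (-0.54 ± 0.12) and Rca1, an inhibitor of the anaphase-promoting complex (-0.53 ± 0.11), act in mitosis. pasi1, a septate junction protein, stood at -0.54 ± 0.10 and GAA1, a subunit of the GPI transamidase, at -0.57 ± 0.19. CG9008, CG10651, CG17059 and ocm ranged from -0.66 to -0.53. Adjusted p-values of these genes lay between 0.00194 and 0.0475, and none of them passed without replicates 3 and 6. There COX7C stood at -0.34, Tim9a at -0.39, ATPsynG at -0.30 and GAA1 at -0.21, while CG9008 and CG10651 stood at -0.70 and -0.74.

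**Figure D3:**
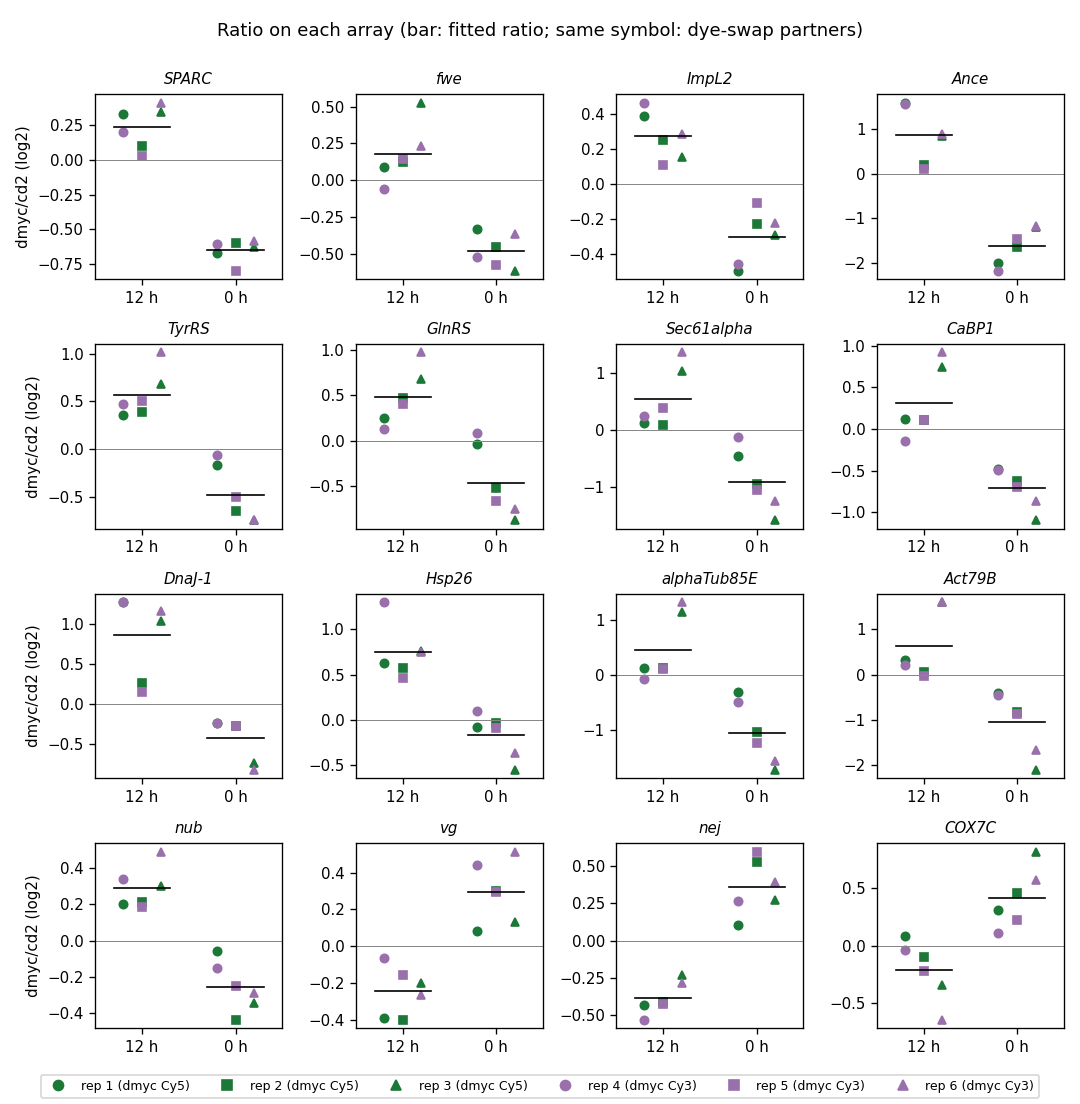
Ratio of 16 genes on each array (log2), with 12 h on the left and 0 h on the right of each panel; the symbol marks the partner pair, the colour the dye that held dmyc RNA, and the bar the fitted ratio. SPARC, ImpL2, nub and nej are apart on every array, while for Sec61alpha, alphaTub85E and Act79B the triangles of replicates 3 and 6 lie farthest out at both times.

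Genes were then grouped into 52 lists by what their products do. The lists were written with earlier results of these data known, so their shares are descriptions. The count of each list is to be read against the share of all features, 9.07% higher and 3.36% lower. Aminoacyl-tRNA synthetases, the enzymes that load amino acids onto tRNAs, had the largest share of higher members among the lists. Of 16 measured, 13 were higher and 0 lower, with a median change of 0.46. The mean over the list ran from 0.14 to 0.53 on the 12 h arrays, with a median of 0.21, against -0.41 to 0.09 on the 0 h arrays, with a median of -0.26. The times did not overlap, replicate 6 of 12 h was the highest array, and replicate 3 of 0 h the lowest. The ratios of TyrRS were 0.36, 0.49 and 1.01 at 12 h, against -0.75, -0.57 and -0.06 at 0 h. Every 12 h array lay above 0 and every 0 h array below it. The change was 1.05 ± 0.14 (adjusted p 0.000203), and 0.78 (adjusted p 0.0318) without replicates 3 and 6. The ratios of GlnRS were 0.13, 0.44 and 0.97 at 12 h, against -0.88, -0.59 and 0.08 at 0 h. The highest array of 0 h was just under the lowest of 12 h. The change of GlnRS was 0.95 ± 0.16 (adjusted p 0.00108). ArgRS (0.50 ± 0.11) and GlyRS (0.47 ± 0.10) were also higher. The 3 members not called were CysRS (0.02), GluProRS (0.13) and HisRS (-0.19), named after their values were seen. TyrRS was the only member of 16 called without replicates 3 and 6, where the median change of the list was 0.26. With partners averaged, 5 of the 16 were called higher. Without replicates 2, 3, 5 and 6 of 0 h the median was 0.18, and 0 of 16 were called by limma, with 5 at an unadjusted p under 0.05.

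Translation factors, which bring mRNA and tRNA to the ribosome, had 7 of 40 members higher and 0 lower, with a median of 0.04. eEF1alpha2, an elongation factor, changed by 1.30 ± 0.29, eIF3j and eIF3h, subunits of the factor that holds the small ribosomal subunit, by 0.74 ± 0.11 and 0.65 ± 0.16. eIF4E1, the cap-binding protein, stood at 0.46 ± 0.10 as the mean of 3 features, of which 1 was at 1.12 and another at -0.04. Factors of ribosome assembly, a process that Myc is known to raise, had 7 of 48 members higher and 2 lower, with a median of 0.07. Without replicates 2, 3, 5 and 6 of 0 h the median was -0.003. On replicates 1 and 4 of 0 h the mean over this list was 0.145 and 0.138, within the 12 h range of 0.11 to 0.19. Without replicates 3 and 6 of both times the median was 0.04, and 0 of 48 were called by limma. The ratios of CG8545 were 0.34, 0.51 and 1.28 at 12 h, against -0.82, -0.27 and 0.01 at 0 h. CG8545, a nucleolar methyltransferase of the Nop2 type, did not overlap between the times and changed by 0.96 ± 0.17 (adjusted p 0.00143). Non1 (1.05 ± 0.22), a GTPase of the large subunit, pit (0.57 ± 0.13), an RNA helicase, and nclb (0.48 ± 0.10) were also higher. Ski6 (-0.44 ± 0.11), an exosome subunit, and Non3 (-0.28 ± 0.09) were lower. Among snoRNP core proteins, 1 of 8 was higher, Fib, the rRNA methylase fibrillarin (0.58 ± 0.15), and 1 was lower, NHP2 (-0.31 ± 0.08). The median of the snoRNP list was 0.01, and -0.19 without replicates 2, 3, 5 and 6 of 0 h. Fib stood at 0.56 at 12 h, against -0.02 at 0 h. Of 10 RNA polymerase I genes, Tif-IA, the initiation factor (0.48 ± 0.15, the mean of 3 features of which 1 was at -0.17), was higher and Polr1H (-0.29 ± 0.07) lower.

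Of 35 cytoplasmic ribosomal protein genes, 1 was higher and 3 lower, with a median of -0.09. The higher one was RpL3 (0.98 ± 0.18), which rests on 2 of its 4 features, at 1.98 and 1.90, while the others were at 0.06 and -0.04. RpL37-1 (-0.46 ± 0.15), RpL39 (-0.41 ± 0.13) and RpL10Aa (-0.17 ± 0.05) were lower. Of 62 mitochondrial ribosomal protein genes, 9 were lower and 4 higher, with a median of -0.12. mRpL9 (-0.33 ± 0.09) and mRpS18C (-0.29 ± 0.07) were lower, and mRpL4 (0.41 ± 0.09) and mRpL45 (0.40 ± 0.09) were higher. Oxidative phosphorylation, the respiratory chain and ATP synthase, had 10 of 66 members lower and 6 higher, with a median of -0.12. The ratios of COX7C were -0.64, -0.16 and 0.09 at 12 h, against 0.11, 0.39 and 0.82 at 0 h. The highest 12 h array lay just below the lowest 0 h array, and replicates 3 and 6 were the outermost at both times. ND-B17.2 (-0.45 ± 0.10) and COX7B (-0.39 ± 0.11) were also lower. ND-42 (0.74 ± 0.15), a subunit of complex I, and ATPsyngamma (0.76 ± 0.19), of the rotor of ATP synthase, were higher, so members of complex I moved in both directions. Without replicates 3 and 6, none of these 163 genes was called by limma, and 23 had an unadjusted p under 0.05.

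**Figure D4:**
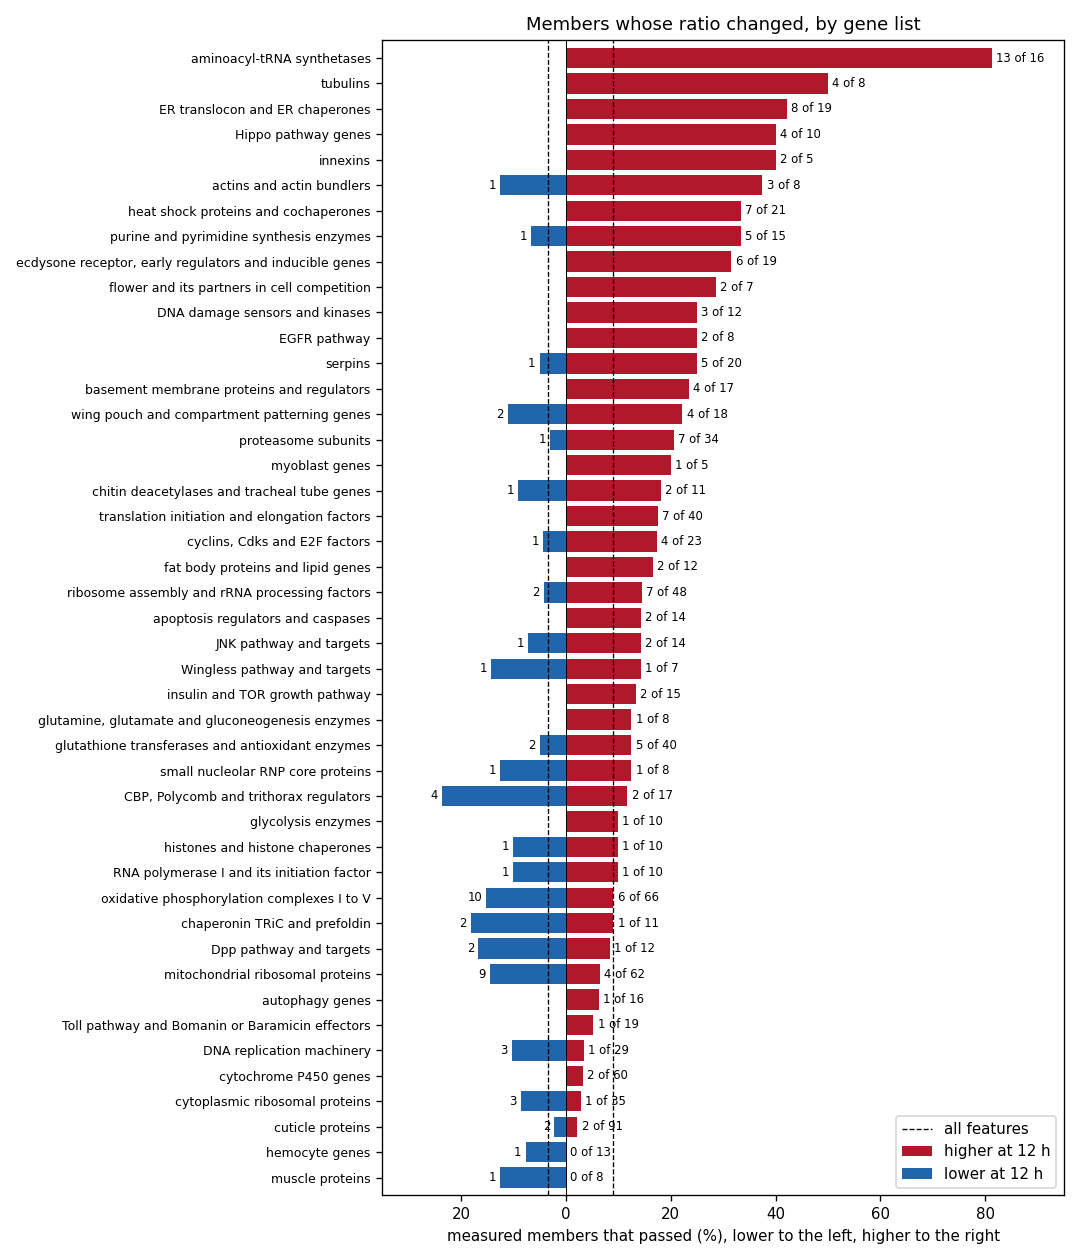
Share of the measured members of each list that were called higher (red, right) or lower (blue, left) at 12 h, with the number beside the bar; dashed lines mark the shares among all features, 9.07% and 3.36%. Aminoacyl-tRNA synthetases reach 13 of 16, tubulins 4 of 8 and endoplasmic reticulum genes 8 of 19, and mitochondrial lists extend to the left.

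Genes of the endoplasmic reticulum, where secreted proteins enter and fold, had 8 of 19 members higher and 0 lower, with a median of 0.26. The mean over the list was 0.01 to 0.25 on the 12 h arrays and -0.32 to -0.14 on the 0 h arrays, without overlap. The ratios of Sec61alpha were 0.08, 0.32 and 1.36 at 12 h, against -1.60, -1.01 and -0.14 at 0 h. For Sec61alpha, the core of the translocation channel, replicates 3 and 6 were the highest arrays of 12 h and the lowest of 0 h. The change was 1.45 ± 0.26 (adjusted p 0.00165), and 0.87 (adjusted p 0.11) without them. CaBP1, a protein disulfide isomerase, changed by 1.02 ± 0.17 (adjusted p 0.00102). TRAM (0.73 ± 0.14) and Sec63 (0.32 ± 0.06), partners of the channel, were also higher, whereas Sec61beta and Sec61gamma stood at -0.31 and -0.21 and were not called (named after their values were seen).

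Secreted and matrix proteins gave smaller counts. Of 17 basement membrane genes, 4 were higher and 0 lower, with a median of 0.15. They were SPARC, the perlecan gene trol (0.45 ± 0.10, 5 arrays at 12 h), the collagen IV gene vkg (0.44 ± 0.10) and PH4alphaEFB (0.31 ± 0.09), a collagen prolyl hydroxylase. Serpins, inhibitors of serine proteases, had 5 of 20 members higher and 1 lower, with a median of -0.04. The ratios of Spn43Aa were 0.22, 0.39 and 0.84 at 12 h, against -1.37, -0.86 and -0.43 at 0 h. Spn43Aa was apart on every array, changed by 1.32 ± 0.24 (adjusted p 0.00185) and stood at 1.22 (adjusted p 0.084) without replicates 3 and 6. Spn55B (0.50 ± 0.09), Spn28Dc (0.33 ± 0.07) and Spn77Ba (0.32 ± 0.08) were higher and Spn31A (-0.17 ± 0.05) lower. Chitin deacetylases and tracheal tube genes had 2 of 11 members higher and 1 lower. verm, a chitin deacetylase, was among those that were higher. The ratios of verm were 0.39, 0.43 and 0.79 at 12 h, against -0.83, -0.52 and -0.08 at 0 h. All its 12 h arrays were positive and all 0 h arrays negative. The change of verm was 1.01 ± 0.14 (adjusted p 0.000248), with 3 features between 0.97 and 1.08, and it passed without replicates 3 and 6 (0.84, adjusted p 0.0437). serp (0.51 ± 0.11), its neighbour in function, was higher and Gasp (-0.50 ± 0.14), a chitin-binding protein, lower. Of 91 cuticle protein genes, 2 were higher and 2 lower (4.4% called).

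Heat shock proteins and cochaperones had 7 of 21 members higher and 0 lower, with a median of 0.05. Both genotypes were heat shocked. The ratios of DnaJ-1 were 0.15, 1.10 and 1.27 at 12 h, against -0.83, -0.28 and -0.24 at 0 h. DnaJ-1, the Hsp40 cochaperone, was high on replicates 1, 3, 4 and 6 of 12 h and lower on replicates 2 and 5, and all 0 h arrays were below 0. The change was 1.29 ± 0.19 (adjusted p 0.000612). The ratios of Hsp26 were 0.46, 0.69 and 1.30 at 12 h, against -0.55, -0.08 and 0.10 at 0 h. Hsp26, a small heat shock protein, was above every 0 h array on every 12 h array, and replicate 4 was the highest. Its change was 0.92 ± 0.18 (adjusted p 0.0032). Hsp110 (0.85 ± 0.18) and the mitochondrial chaperonin Hsp60A (0.45 ± 0.10) were also higher. DnaJ-1 stood at 1.00 (adjusted p 0.0666) and Hsp26 at 0.77 (adjusted p 0.126) without replicates 3 and 6. Of 11 genes of the TRiC chaperonin and prefoldin, CCT2 was higher (0.82 ± 0.25), and CCT7 (-0.40 ± 0.13) and Pfdn5 (-0.40 ± 0.10) were lower. Proteasome subunits had 7 of 34 members higher and 1 lower, with a median of 0.05. Rpn7 (0.72 ± 0.16), a lid subunit, and the ATPase Rpt2 (0.47 ± 0.10) were higher. So were the testis-type paralogs Rpt3R (0.37 ± 0.08) and Prosbeta2R2 (0.42 ± 0.09, 4 arrays at each time). Rpt4R (-0.18 ± 0.05, 5 arrays at 0 h) was lower.

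The cytoskeleton and cell contacts held several of the largest steps. Tubulins had 4 of 8 members higher and 0 lower. The ratios of alphaTub85E were -0.08, 0.13 and 1.32 at 12 h, against -1.73, -1.14 and -0.32 at 0 h. For alphaTub85E, replicates 3 and 6 of 12 h were far above the other arrays of that time, and replicates 3 and 6 of 0 h were the lowest. The change was 1.52 ± 0.25 (adjusted p 0.00105). alphaTub84D (0.56 ± 0.16) and alphaTub67C (0.28 ± 0.09) changed less, and both features of betaTub56D were called, at 1.51 and 1.66. Actins and actin binders had 3 of 8 members higher and 1 lower. The ratios of Act79B were -0.03, 0.26 and 1.60 at 12 h, against -2.10, -0.84 and -0.40 at 0 h. Act79B did not overlap between the times, and its extremes were again replicates 3 and 6. Besides both actins, the profilin gene chic was higher (0.96 ± 0.23), and the cofilin gene tsr was lower (-0.30 ± 0.08). Tubulin, actin and translation factor genes have near-identical copies, and the sources used here do not give which copy a probe measured. Innexins, which form gap junctions, had 2 of 5 members higher, Inx3 (1.29 ± 0.29, 5 arrays at 12 h) and ogre (1.04 ± 0.33). On average over the tubulin list, replicates 3 and 6 had 0.42 and 0.49 at 12 h and -0.65 and -0.44 at 0 h.

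Among genes of the ecdysone response, the steroid program that times larval development, 6 of 19 were higher and 0 lower, with a median of 0.17. Besides Ance and ImpE2 they included Hr78 (0.68 ± 0.12), a nuclear receptor, and ImpL2 (0.58 ± 0.09), a secreted protein that binds insulin-like peptides. The ratios of ImpL2 were 0.11, 0.27 and 0.47 at 12 h, against -0.50, -0.26 and -0.11 at 0 h. ImpL2 was apart on all arrays. Its change was 0.63 (adjusted p 0.0377) without replicates 3 and 6. The receptor genes EcR and usp had changes of 0.07 and 0.23 and were not called (named after their values were seen). In the insulin and TOR list, which shares ImpL2, the kinase gene mTor was the other of 2 members of 15 that were higher (0.42 ± 0.09). The median of that list was -0.03.

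Of 18 wing pouch and compartment genes, 4 were higher and 2 lower. The ratios of nub were 0.19, 0.26 and 0.49 at 12 h, against -0.44, -0.27 and -0.06 at 0 h. nub, a POU transcription factor of the pouch, did not overlap between the times. Its change was 0.54 ± 0.07 (adjusted p 0.000248), and 0.46 (adjusted p 0.0377) without replicates 3 and 6. tup (0.63 ± 0.16), a factor of the notum, the ligand hh (0.27 ± 0.08, 5 arrays at 12 h) and its receptor ptc (0.22 ± 0.06) were higher. The ratios of vg were -0.40, -0.23 and -0.06 at 12 h, against 0.08, 0.30 and 0.51 at 0 h. vg, the vestigial selector of the wing, moved against nub, and its change was -0.54 ± 0.14 (adjusted p 0.0125). Without replicates 3 and 6 it was -0.53 and missed the threshold (adjusted p 0.157). salr (-0.20 ± 0.06) was lower as well. A ratio carries no expression level, so the presence of the tissue's markers could not be checked from these values. In the Dpp pathway, 1 of 12 was higher, the ligand gbb (0.47 ± 0.13), and 2 were lower, the co-Smad Med (-0.51 ± 0.13) and salr. In the Wingless list, 1 of 7 was higher, wls (0.35 ± 0.11), a carrier of Wnt proteins, and vg was lower. The EGFR list had 2 of 8 members higher, the ligand spi (0.78 ± 0.14) and the MEK kinase Dsor1 (0.35 ± 0.09). In the Notch list 0 of 17 were called by limma, 3 had an unadjusted p under 0.05, and the median change was 0.08.

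The Hippo pathway, which restrains growth, had 4 of 10 members higher and 0 lower, with a median of 0.20. They were the growth-promoting coactivator yki (0.50 ± 0.14), mats (0.29 ± 0.09), a cofactor of the kinase Warts, Rassf (0.39 ± 0.10), an inhibitor of Hippo, and the Golgi kinase fj (0.45 ± 0.11), so both activators and restrainers of growth were among them. In the JNK list, 2 of 14 were higher, kay (0.30 ± 0.08), the Fos factor, and wgn (0.18 ± 0.06), a receptor of the TNF type, while bsk (-0.17 ± 0.05), the JNK kinase itself, was lower. Apoptosis regulators had 2 of 14 members higher and 0 lower, with a median of -0.05. They were Bruce (0.60 ± 0.10), an inhibitor of apoptosis, and wgn. Bruce had 2 features at 0.60 each.

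Of 23 cyclins, Cdks and E2F genes, 4 were higher and 1 lower. The ratios of E2f2 were 0.10, 0.26 and 0.64 at 12 h, against -0.81, -0.32 and -0.08 at 0 h. The times of E2f2, a repressing E2F, did not overlap, and the change was 0.69 ± 0.13 (adjusted p 0.00233). Its partner Dp (0.47 ± 0.13), the mitotic activator fzy (0.66 ± 0.19) and CycK (0.35 ± 0.11) were higher, and the S phase kinase Cdk2 was lower (-0.41 ± 0.10). In the DNA replication list, 3 of 29 were lower and 1 higher, with a median of -0.05. The ratios of PCNA were -0.27, -0.23 and -0.02 at 12 h, against 0.13, 0.31 and 0.62 at 0 h. PCNA, the sliding clamp, did not overlap and changed by -0.52 ± 0.14 (adjusted p 0.0177). PolE4 (-0.39 ± 0.08) and Orc1 (-0.19 ± 0.06) were also lower, and RnrL (0.66 ± 0.19), the large subunit of ribonucleotide reductase, was higher. DNA damage genes had 3 of 12 members higher and 0 lower, namely mre11 (0.42 ± 0.10), nbs (0.35 ± 0.10) and Ku80 (0.35 ± 0.07). The partner of mre11 and nbs, rad50, stood at -0.05 and was not called (named after its value was seen).

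Chromatin regulators had the largest share of lower members among lists of 15 or more genes. Of 17 CBP, Polycomb and trithorax genes, 4 were lower and 2 higher. Besides nej they were corto (-0.49 ± 0.12), osa (-0.39 ± 0.12), a subunit of the Brahma complex, and Pcl (-0.23 ± 0.07). The ratios of corto were -0.89, -0.45 and -0.13 at 12 h, against -0.18, -0.01 and 0.23 at 0 h. The ratio of corto was below 0 on every 12 h array and around 0 at 0 h, with some overlap, and without replicates 3 and 6 its change was -0.70 (adjusted p 0.0377). ash2 (0.31 ± 0.08) and mor (0.39 ± 0.11), another Brahma subunit, were higher. Of 10 histone and histone chaperone genes, Nap1 was higher (1.13 ± 0.26) and His2Av lower (-0.46 ± 0.15).

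In metabolism, purine and pyrimidine synthesis had 5 of 15 members higher and 1 lower, with a median of 0.19. Without replicates 2, 3, 5 and 6 of 0 h the median was -0.06. On replicates 1 and 4 of 0 h the mean over this list was 0.14 and 0.13, within the 12 h range of 0.07 to 0.145. Gart (0.51 ± 0.16, 5 arrays at 0 h), r-l (0.44 ± 0.11), Adss (0.39 ± 0.10) and Dhod (0.32 ± 0.08) were higher, and CG2246 (-0.37 ± 0.11) was lower. Of 10 glycolysis genes, Pgk was higher (0.71 ± 0.16). Of 8 genes of glutamine and glutamate metabolism, Got2 was higher (0.48 ± 0.13). Glutathione transferases and antioxidant enzymes had 5 of 40 members higher and 2 lower, with a median of -0.03. GstD4 (0.74 ± 0.14), Trxr1 (0.45 ± 0.09, 4 arrays at 12 h) and Gtpx (0.40 ± 0.11) were higher, and GstD11 (-0.27 ± 0.06) and GstZ1 (-0.24 ± 0.07) were lower. Of 60 cytochrome P450 genes, 2 were higher, Cyp9c1 (0.43 ± 0.12) and Cyp6d4 (0.34 ± 0.09). Autophagy genes had 1 of 16 higher, the kinase gene Atg1 (0.43 ± 0.08).

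Markers of other tissues that can adhere to a disc were counted in the same way. No member was called by limma among 16 gut enzymes, 10 salivary gland genes or 4 neuron genes, and 1 of the 30 had an unadjusted p under 0.05. Of 13 hemocyte genes, 1 was lower, PPO1 (-0.37 ± 0.08, 5 arrays at 12 h), and of 8 muscle genes, 1 was lower, sls (-0.36 ± 0.08). A change above 0 was seen in 2 of the 13 hemocyte and 1 of the 8 muscle genes. The same count was 2 of 10 for salivary gland, 1 of 4 for neuron and 8 of 16 for gut genes. Fat body and myoblast genes leaned the other way, with 9 of 12 and 5 of 5. Over all features the median change was -0.0006. The muscle mean was 0.44 and 0.45 on replicates 1 and 4 of 0 h, against 0.04 to 0.12 on the other 0 h arrays. The hemocyte mean was 0.19 and 0.26 on replicates 1 and 4 of 0 h, -0.18 and -0.13 on 2 and 5, and 0.12 and 0.09 on 3 and 6. Of 12 fat body and lipid genes, 2 were higher, Lsd-2 (0.46 ± 0.14) and Mtp (0.49 ± 0.11). The fat body mean differed widely between arrays, from -0.17 to 0.68 at 12 h and from -0.70 to 0.59 at 0 h, so the times overlapped. Of 5 myoblast genes, 1 was higher, Ama (0.64 ± 0.18). Their part in the other changes was not tested. In the Toll list, 1 of 19 was higher, the inhibitor cact (0.48 ± 0.14).

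**Figure D5:**
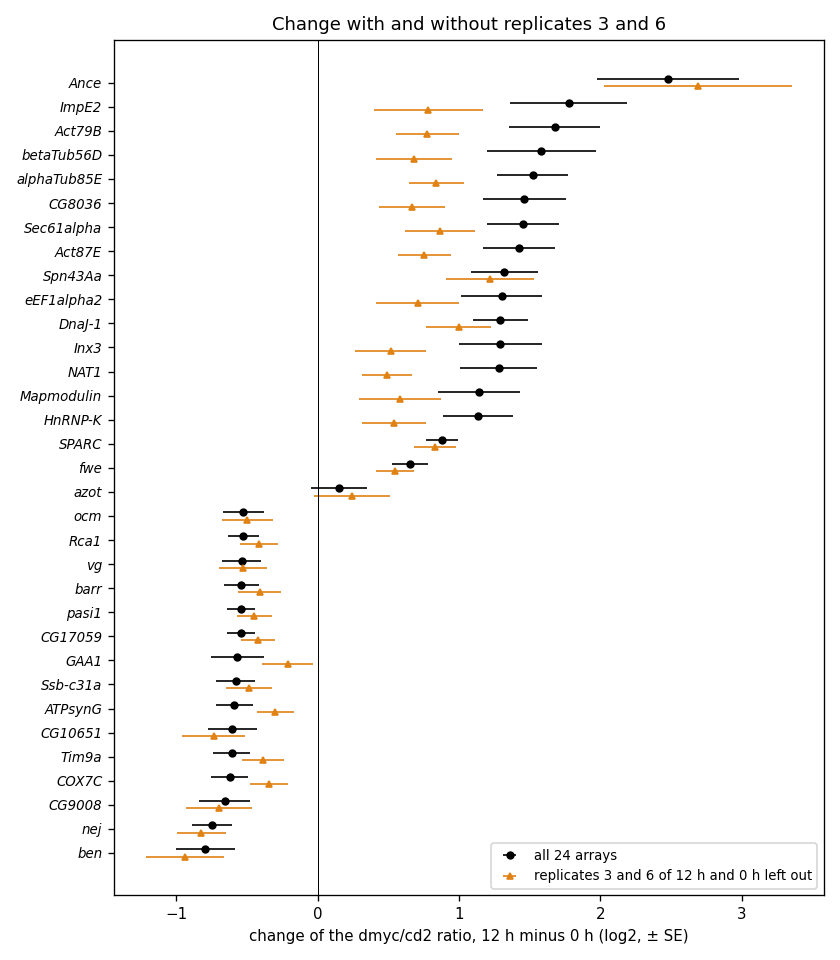
Change of the ratio, 12 h minus 0 h (log2, ± SE), of the genes that changed most and of SPARC, fwe and azot, from all arrays (black circles) and without replicates 3 and 6 of both times (orange triangles). Ance, Spn43Aa, SPARC, fwe, vg, nej and ben lie near their values from all arrays, though of these 7 only SPARC and nej were still called, whereas ImpE2, the actins and the tubulins are smaller (0.78 against 1.68 for Act79B).

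Without replicates 3 and 6 of both times, 7 genes of the lists were called: SPARC, TyrRS, ImpL2, verm and nub were higher, and nej and corto lower. A stricter view asks which features were called in each of 5 such fits: without replicates 3 and 6 of both times, of 12 h or of 0 h, without replicates 2 and 5 of 0 h, and without replicates 2, 3, 5 and 6 of 0 h. There were 9 such features, of which 2 have no gene name. SPARC was to be named whatever its values. ImpL2 was named because it was called within lists written with earlier results known. The other names were chosen after their values were seen. SPARC changed by 0.81 to 0.90 in the 5 fits and ImpL2 by 0.60 to 0.75. Fkbp14, a prolyl isomerase of the endoplasmic reticulum, had ratios of 0.14, 0.24 and 0.42 at 12 h and -0.75, -0.37 and -0.26 at 0 h, with a change of 0.69 ± 0.10 (adjusted p 0.000455). The others that were higher were CG9331 (0.89 ± 0.11), prg (0.58 ± 0.07) and CG46280 (0.64 ± 0.08). For each of them every 12 h array was above every 0 h array. Su(var)3-3, a histone demethylase of the LSD1 type, was lower, with a change of -0.39 ± 0.07 (adjusted p 0.00231). Its ratios were -0.55, -0.30 and -0.12 at 12 h and -0.21, 0.10 and 0.30 at 0 h, with some overlap. With replicates 2, 3, 5 and 6 of 0 h turned, the change of SPARC was 0.01. As deposited, SPARC was below 0 on every 0 h array, with -0.67 and -0.605 on replicates 1 and 4. Turning the others therefore gave the 0 h arrays opposite signs, which cancel in the mean. With those arrays left out instead, its change was 0.87.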

How the data were processed

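RNA of tub>dmyc>Gal4 and tub>cd2>Gal4 wing discs was compared on 24 two-colour arrays, 6 for each of 0, 12, 24 and 48 h, with the dyes exchanged on 3 of the 6. RNA went through 2 rounds of linear amplification and labelling with Cy5 or Cy3, per the labels' protocols, which can change ratios of transcripts unequally. The deposited values are log2 ratios as far as the values show. The sources used here do not give the log base, scanner, background correction or normalization the authors used, nor signal over background, so the depth behind a feature is unknown.

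Of 12359 features, 169 at inferred control positions were left out, and 10289 of the 12190 kept name 1 gene, 56 several and 1845 none in the platform annotation. Of these, 9992 matched RefSeq, which updated symbols. Arrays were centred on their median, features of a gene averaged, and 4 or more values of 6 required at each time, which left 10622 features (8776 named genes). Both dye orientations of the deposited values run the same way.

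The fit used limma 3.58.1 in R 4.3.3 (lmFit, eBayes), with 1 coefficient per time, a dye coefficient and partner pairs as a random block (duplicateCorrelation, 0.444), and Benjamini-Hochberg adjustment over all features. Partners are the arrays of a time and opposite dye that match best (r 0.52 to 0.898). At 24 h they are replicates 1 and 5, 2 and 6, 3 and 4. Arrays of 24 and 48 h add to the estimates of the spread, the partner correlation and the dye coefficient, which can move the change of features with missing values. The fit was also run on simulated data with independent genes and the same partner correlation. Those data held no arrays running against others, so that run cannot show how the fit handles the opposed arrays here. Genes named in the text were fwe, azot and SPARC, called named genes among the 15 highest and 15 lowest with 5 or more values at each time, up to 4 called members of lowest p per direction of lists with 3 or more called, and those of lists with 1 or 2. The members and lists were chosen with earlier results of these data known. Alternatives were other treatments of partners, dye, centring, scale, missing values, variance and array weights, a replicate block, and arrays or pairs left out. Leaving out or turning several pairs and removing the trend on gene span were chosen after seeing the data.

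Replicate numbers did not pair the samples across times: deviations of same-numbered arrays of 12 h and 0 h had correlations of 0.02, -0.22, -0.53, 0.02, -0.12 and -0.40.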

Additional observations from a re-analysis of the deposited data

Results flagged for a closer look

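For the 163 genes named, the 6 arrays of each time were examined for a single array far from the others, 326 groups in all, and 9 were found, where chance gives about 1 in 20 groups. At 12 h, Hsp26 was 1.30 on replicate 4, next to 0.77. Also at 12 h, Rassf was 0.52 and CG9008 0.21 on replicate 4, GlyRS was 0.41 on replicate 6, and on replicate 2 Pfdn5 was 0.27 and His2Av -0.35. At 0 h, Gart was 0.56 on replicate 1, with the other arrays at or below -0.23, and Trxr1 (-0.076) and CG2246 (-0.067) stood apart on the same replicate.

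Positions at which no feature named a gene repeat through the array and were left out of every comparison. What they hold is not known here. Several had ratios far from 0. At position 2 the median was 1.42 and 1.65 on replicates 3 and 6 of 12 h, and -1.67 and -1.475 on replicates 3 and 6 of 0 h. At position 4 it was -1.60 on replicate 5 of 12 h and -5.04 on replicate 1 of 0 h. At position 5 it was -4.76 on replicate 1 of 12 h, and -4.62 and -4.30 on replicates 1 and 4 of 0 h. Replicates 2, 3 and 5 of 0 h had 8, 2 and 5 values there, with medians of 0.04, 0.10 and -0.12. Replicate 6 of 0 h had none. At position 6 the median was 2.41 on replicate 4 of 12 h and -1.26 on replicate 1 of 0 h.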

How the results depend on the processing

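Partners treated as independent arrays gave 1603 features higher and 933 lower, partners averaged 261 and 95 (112 of 163 named genes lost their call), and array weights 1618 and 879, against 963 and 357. With the replicate number as a block there were 1522 and 880. That fit also drops the correlation of partners, and the numbers do not pair the samples. Leaving out single arrays gave 749 to 1079 higher and 231 to 433 lower, the lowest count of lower features coming without 0 h replicate 3. Without the 12 h pair 3 and 6 there were 305 and 75, without the 0 h pair 2 and 5 431 and 96, and without the 0 h pair 3 and 6 286 and 47. Without the 0 h pair 1 and 4 there were 1315 and 547. Without the pairs 3 and 6 of both times the counts were 26 and 5, and without 0 h replicates 2, 3, 5 and 6 they were 27 and 7. With these 4 arrays turned the counts were 0 and 0. Dye, centring, equal scale, the filters, the robust fit and the trend on gene span kept both counts within 1.5 times. So did the 0 h and 12 h arrays alone and quantile normalization, which moved the split as given above. Of the 163 named genes, however, 51 lost their call with the 0 h and 12 h arrays alone and 21 with quantile normalization. The cause of these differences was not tested.

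Signs of 51 named genes reversed with 0 h replicates 2, 3, 5 and 6 turned, none of them called. The genes that were higher and then had a change below 0 were fwe (-0.015), Act79B (-0.14), betaTub56D (-0.29), alphaTub85E (-0.33), CG8036 (-0.28), Sec61alpha (-0.17), Act87E (-0.0007), eEF1alpha2 (-0.22), Inx3 (-0.35), NAT1 (-0.034), Non1 (-0.054), ND-42 (-0.068), CCT2 (-0.20), alphaTub84D (-0.15), chic (-0.13), Hr78 (-0.01), Tb (-0.099), ogre (-0.19), CaBP1 (-0.077), TRAM (-0.059), Ama (-0.059), ptc (-0.0072), hh (-0.025), wls (-0.028), Dsor1 (-0.035), fj (-0.0903), yki (-0.034), RnrL (-0.04), fzy (-0.039), CycK (-0.027), Pgk (-0.14), mor (-0.036), Dhod (-0.059), r-l (-0.073), Adss (-0.10), Gart (-0.014). Those that were lower and then had one above 0 were COX7C (0.063), Tim9a (0.055), ATPsynG (0.057), Ssb-c31a (0.075), NHP2 (0.22), RpL39 (0.22), RpL37-1 (0.12), mRpS18C (0.043), COX7B (0.13), Pfdn5 (0.10), CCT7 (0.13), tsr (0.033), Gasp (0.009), GstZ1 (0.053), His2Av (0.29). Gart was also at -0.12 without those arrays. With features not averaged, the lowest feature was at -0.17 for Tif-IA, -0.042 for RpL3 and -0.036 for eIF4E1. Signal over background, which would bear on weak features, is not known here.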

Other observations

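Semaphorins and plexins, guidance ligands and their receptors, had 3 measured members, none called by limma and 1 with an unadjusted p under 0.05, with a median change of -0.34. mRNA export factors had 0 of 9 members called by limma, and 4 had an unadjusted p under 0.05. The mean over that list lay between -0.24 and -0.08 on the 12 h arrays and between -0.05 and 0.07 on the 0 h arrays, without overlap. Much of the 12 h mean came from the member Ref2, and the mean was not taken without it. Ref2, a member that was near -1.07 on average at 24 and 48 h, had ratios of -1.58 to -0.56 at 12 h and -0.63 to 0.01 at 0 h, and its change of -0.67 did not pass (adjusted p 0.0527). It was chosen after its values were seen.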
